A study of Mus musculus with 11 samples.

Results

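Potassium channel genes were read here from the count table of a mouse forebrain study of the transcription factor gene Zeb2. The genes taken were those whose symbol starts with Kcn and whose mean level over all 11 libraries reached 1 CPM (reads of a gene scaled to a fixed library size, here by library total). Of 98 such symbols in the table of 39179 genes, 94 were protein-coding and 62 of these reached the limit. They are the potassium channel genes described below. A noncoding gene on the opposite strand of Kcnd3, Kcnd3os, also reached it and is given separately. The other 32 coding genes lay under 1 CPM, and 8 of them (Kcna10, Kcne4, Kcng4, Kcnj1, Kcnk9, Kcnk15, Kcnk16 and Kcnk18) had no count in any library. At the edge of the limit, Kcnc4 and Kcns3 were just inside at a mean of 1.11 CPM each, and Kcns1 just outside at 0.969 CPM.

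The libraries hold RNA of GFP-positive cells sorted from papain-dissociated V-SVZ tissue (the ventricular-subventricular zone, where neurons are born beside the lateral ventricles) of CD1/Swiss mice at postnatal day 2. There were 5 mutant libraries of genotype Gsh2-Cre; Zeb2fl/KO and 6 control libraries of genotype Gsh2-Cre; Zeb2fl/wt. Both groups carry Gsh2-Cre, which is expressed in ventral forebrain progenitors, and 1 floxed Zeb2 allele. The second allele is null in mutants, in every cell of the animal, and wild type in controls, so the control cells are themselves expected to be heterozygous after recombination. Nothing in the labels ties the libraries to separate animals. The p-values therefore measure spread from library to library, which may be technical.

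Depth was 6833981 to 13073505 counts per library. The whole-gene count of Zeb2, which cannot show which exons the reads came from and so does not check the deletion, stood at 303 ± 63.8 CPM in mutant libraries (SD, n = 5) and 238 ± 46.7 CPM in control libraries (SD, n = 6), with an adjusted p of 0.294. The groups are therefore named by their labels. Counts of Y-linked genes were 0 in all 5 mutant libraries and in 2 controls, replicates 4 and 5, while the other 4 controls had them. Genotype and sex thus cannot be told apart in 4 of the 6 controls. Mutant 5 and control 6 stood apart from the rest on the second principal component, which held 16.1% of the variance.

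Potassium channels let potassium leave the cell and so set the resting membrane potential and end action potentials. Voltage-gated (Kv) channels are tetramers of pore-forming subunits of the Kcna, Kcnb, Kcnc, Kcnd, Kcnh and Kcnq families. Silent subunits of the Kcnf, Kcng, Kcns and Kcnv families do not form channels alone and alter Kcnb channels when they join them. Accessory proteins bind the pore from the cytoplasm (Kcnab, Kcnip) or within the membrane (Kcne, Kcnmb). Inward rectifiers (Kcnj) and K2P leak channels (Kcnk) hold the resting potential, and the Kcnma, Kcnn and Kcnt channels open with intracellular calcium or sodium. In the developing forebrain, immature neurons acquire Kv currents as they differentiate, and glia carry inward rectifier current.

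Zeb2 protein is known to bind DNA through paired zinc finger clusters at E-box-like sequences that contain CACCTG. Promoter sequences are shown for Kcnip1 and Kcna5, which hold this motif among the 5 genes past the threshold that have a promoter in the RefSeq table, and for Kcne1l, the gene that fell. Kcnv1, the other gene past the threshold, was not searched. Each runs over the 250 bases before a RefSeq transcript start (GRCm38.p6), in the direction of the gene, and capitals mark CACCTG or its reverse complement CAGGTG. The Kcnip1 sequence, from an internal start at chr11:33843687-33843936 on the minus strand, holds both forms, beginning 232 and 196 bases before the start. The Kcna5 sequence, at chr6:126535556-126535805 on the minus strand, holds 1, beginning 122 bases before the start. The Kcne1l sequence lies at chrX:142306199-142306448 on the minus strand and holds none. Part of this window lies inside the gene as annotated in GENCODE, which starts at position 142306294 on that strand.
Kcnip1: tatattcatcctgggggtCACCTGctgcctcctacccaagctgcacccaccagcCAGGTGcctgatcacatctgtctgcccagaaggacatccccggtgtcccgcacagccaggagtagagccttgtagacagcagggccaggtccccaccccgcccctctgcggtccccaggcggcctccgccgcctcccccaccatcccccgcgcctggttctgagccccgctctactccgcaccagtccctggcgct
Kcna5: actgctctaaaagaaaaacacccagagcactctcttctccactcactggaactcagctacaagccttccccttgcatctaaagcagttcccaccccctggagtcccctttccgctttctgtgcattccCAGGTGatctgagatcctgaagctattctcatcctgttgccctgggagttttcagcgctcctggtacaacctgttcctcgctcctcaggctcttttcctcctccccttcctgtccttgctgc
Kcne1l: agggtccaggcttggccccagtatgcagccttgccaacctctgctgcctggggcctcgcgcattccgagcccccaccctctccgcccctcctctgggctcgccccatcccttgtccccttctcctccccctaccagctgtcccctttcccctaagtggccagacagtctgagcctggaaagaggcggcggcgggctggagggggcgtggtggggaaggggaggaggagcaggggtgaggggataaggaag

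The motif was searched on both strands, and a match is a description of the letters in the window only. It was present in 17.2% of all 32851 promoter sequences of that length. RefSeq promoters were matched for 44 of the 62 potassium channel genes, with 66 starts among them, and 22.7% of these 66 sequences held it. By gene, 13 of the 44 (29.5%) had it at 1 start or more, against 18.4% of the 10209 tested genes with a promoter. The promoters shown for Kcnh1 and Kcnh7 in the same table held none, and the other 2 starts of Kcnip1 held none.

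Measured per kilobase of exon, the levels of the 62 genes spanned more than 2 orders of magnitude. Kcnip3 (also called DREAM or calsenilin), a calcium-binding protein that acts on Kv channels and on transcription, had the highest level at 41.5 ± 9.51 CPM per kilobase in mutant and 33.8 ± 9.72 in control libraries. Kcnip1 followed in mutant libraries at 17.6 ± 3.10, against 7.82 ± 1.31 CPM per kilobase in controls. Kcne1l was second in controls, with 13.2 ± 2.97 CPM per kilobase in mutant and 29.4 ± 5.19 in control libraries. The 2 highest levels in each group thus belonged to accessory genes. The pore-forming gene with the highest level was Kcnn1, a small-conductance calcium-activated channel, at 15.1 ± 5.45 CPM per kilobase in mutant and 13.3 ± 5.12 in control libraries, groups that overlapped. Kcnk1, a K2P channel, stood at 9.56 ± 1.08 in mutant and 6.79 ± 2.77 CPM per kilobase in control libraries. Kcnh3, lowest in mutants, reached 0.0845 ± 0.122 CPM per kilobase in mutant and 0.511 ± 0.394 in control libraries.

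**Figure D1:**
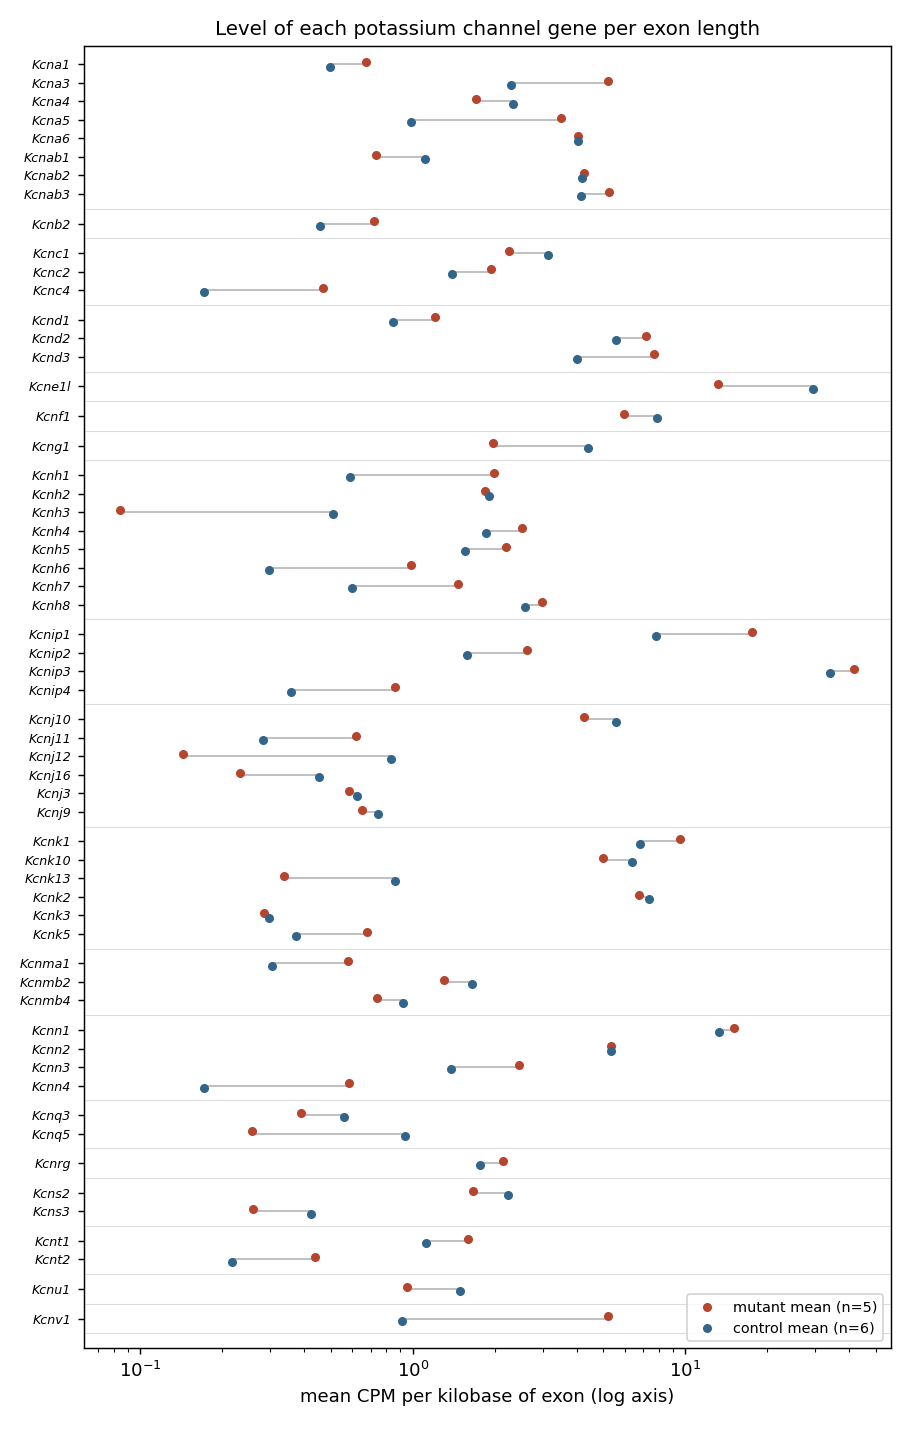
Mean TMM-scaled CPM per kilobase of exon (log axis) of 58 potassium channel genes, grouped by subfamily, in 5 mutant libraries and 6 control libraries; each line joins the means of a gene. Kcnip3 has the highest mean in both groups (41.5 in mutants, 33.8 in controls), and Kcne1l has 13.2 in mutants and 29.4 in controls.

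The comparison of mutant with control libraries asked which genes differ when the remaining Zeb2 allele is absent in this lineage. Of the 62 potassium channel genes, 61 passed the filter on low counts and were tested (Kcnc4 did not pass). In mutant libraries 5 rose and 1 fell at an adjusted p under 0.05 by edgeR's quasi-likelihood test with Benjamini-Hochberg adjustment over 14104 genes, and 55 did not pass. Without control 6 and mutant 5, the same 5 and Kcnd3 rose and the same 1 fell. The 6 called with all libraries are 9.84% of those tested, where 4.42% of all tested genes were called. For genes that rose the share was 8.20% against 2.68% of all tested genes, and for the 1 that fell 1.64% against 1.74%. Unadjusted p-values under 0.05 were reached by 27.9% of the potassium channel genes and 17.3% of all tested genes. The median log2 fold change (mutant over control) was 0.19 over the 61 genes and -0.02 over all tested genes. Standard errors were wider for these genes, with a median of 0.419 on the log2 scale against 0.227 for all tested genes. The median size of the log2 fold change was likewise wider, at 0.50 against 0.24.

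Kcnip1 encodes a calcium-binding accessory subunit (KChIP1) of the Kcnd (Kv4) channels that carry A-type current, and it rose in mutant libraries. The gene (ENSMUSG00000053519) lies at chr11:33629339-33993152 on the minus strand. It stood at 129, 117, 123, 86.1 and 91.4 CPM in mutants 1 to 5. Controls ranged from 34.3 CPM to 57.7 CPM with a median of 49.5 CPM. Every mutant library was above every control, and the lowest mutant stood well clear of the highest control. The means were 109 ± 19.2 CPM in mutants (SD, n = 5) and 48.5 ± 8.15 CPM in controls (SD, n = 6), a log2 fold change of 1.17 (SE 0.155, adjusted p = 0.000383). The gene remained past the threshold without any 1 library and among female libraries alone (log2 fold change 1.08, adjusted p = 0.0331).

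The Kcnd channels to which Kcnip proteins bind did not pass, and all 3 had positive log2 fold changes, between 0.36 and 0.93. All 3 were positive in the 21 other fits too. Kcnd3 (Kv4.3), named here because its adjusted p lay near the threshold, had 98.9, 50.6, 92.3, 83.6 and 41.6 CPM in mutant libraries. Its control values ran from 20.6 CPM through a median of 39.4 CPM to 52.7 CPM. Mutants 2 and 5 lay within the range of the controls. The means were 73.4 ± 25.7 CPM in mutants and 38.4 ± 11.3 CPM in controls, with a log2 fold change of 0.93 (SE 0.256, adjusted p = 0.0533). Without mutant 2, mutant 5 or control 1 its adjusted p was 0.0419, 0.0225 and 0.0452 in turn. It did not pass in the other 8 of the 11 fits without 1 library, where the adjusted p went up to 0.153. Kcnd3 shares exon sequence positions with Kcnd3os on the other strand, which stood at 1.29 ± 0.364 CPM in mutants and 1.08 ± 0.396 CPM in controls (adjusted p = 0.849). Kcnd2 (Kv4.2) had 37.0 ± 5.28 CPM in mutants and 28.7 ± 12.9 CPM in controls (adjusted p = 0.508). Of the other Kcnip genes, Kcnip2, Kcnip3 and Kcnip4 had log2 fold changes of 0.73, 0.30 and 1.25, none past the threshold (adjusted p = 0.275, 0.498 and 0.321). Kcnip4 was low, at 3.12 ± 1.96 CPM in mutants and 1.29 ± 0.496 CPM in controls. Its exons overlap 5730480H06Rik on the opposite strand, at 14.3 ± 2.78 CPM in mutants and 11.5 ± 4.94 CPM in controls. Summed over the 4 Kcnip genes, the level per kilobase was 62.6 ± 8.25 CPM in mutant and 43.5 ± 10.3 CPM in control libraries.

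Kcne1l (KCNE5 in humans), an X-linked single-pass membrane subunit that inhibits some Kv channels in heterologous cells, was the potassium channel gene that fell. The gene (ENSMUSG00000090122) lies at chrX:142304752-142306294 on the minus strand. Mutant libraries had 19.7, 13.2, 25.9, 21.7 and 20.8 CPM. Control libraries had 35.3 CPM at the lowest, 45.1 CPM at the median and 56.1 CPM at the highest. Every mutant library was below every control. The means were 20.3 ± 4.58 CPM in mutants and 45.3 ± 8.01 CPM in controls, a log2 fold change of -1.16 (SE 0.190, adjusted p = 0.00197). The call held without any 1 library. Among female libraries alone, with 5 mutants and 2 controls, the log2 fold change was -1.17 and did not pass (adjusted p = 0.0812). The other Kcne genes were under 1 CPM.

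Kcnv1 encodes a silent subunit (Kv8.1) that joins Kcnb channels, and it had the largest positive log2 fold change of the 61 genes. The gene (ENSMUSG00000022342) lies at chr15:45106284-45114920 on the minus strand. It stood at 31.3, 25.5, 22.9, 31.8 and 7.31 CPM in mutant libraries. Controls ran from 1.48 CPM through a median of 2.24 CPM to 14.6 CPM. Mutant 5 was low among the mutants and control 5 high among the controls, and these 2 libraries overlapped. The means were 23.7 ± 9.94 CPM in mutants and 4.19 ± 5.10 CPM in controls, a log2 fold change of 2.51 (SE 0.570, adjusted p = 0.0196). Without control 5 the log2 fold change was 3.49 (adjusted p = 0.000107). Leaving out mutant 1 (2.39, adjusted p = 0.0539) or mutant 4 (2.38, adjusted p = 0.0517) ended the call. The 2 female controls include control 5, the high one. The call was also absent among female libraries (1.55, adjusted p = 0.422) and with the Y-linked level as a covariate (1.54, adjusted p = 0.405).

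Of the Kcnb channels that Kcnv1 joins, Kcnb2 (Kv2.2) had 11 ± 4.82 CPM in mutants and 6.90 ± 4.76 CPM in controls and did not pass (adjusted p = 0.471). The other 4 silent subunits all had negative log2 fold changes, and none of them passed in the fit reported. Kcng1 (Kv6.1) came nearest at 8.87 ± 2.56 CPM in mutants and 19.7 ± 9.55 CPM in controls, with a log2 fold change of -1.15 (adjusted p = 0.0702). Without control 2 Kcng1 passed (adjusted p = 0.0438), and in the other 10 of the 11 fits without 1 library it did not. DESeq2 also called it lower. Kcnf1 (Kv5.1), the silent subunit with the highest level per kilobase in both groups, stood at 28.4 ± 9.97 CPM in mutants and 37.6 ± 14.3 CPM in controls (adjusted p = 0.501). The remaining pair, Kcns2 and Kcns3, had log2 fold changes of -0.44 and -0.68 (adjusted p = 0.618 and 0.818). Summed per kilobase over all 5 silent subunits, the level was 15.0 ± 2.34 CPM in mutant and 15.8 ± 4.14 CPM in control libraries.

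Kcna5 encodes the Kv1.5 pore-forming subunit of delayed rectifier channels, and it rose in mutant libraries. The gene (ENSMUSG00000045534) lies at chr6:126532551-126535412 on the minus strand. Mutant libraries had 7.53, 8.73, 7.87, 11.8 and 14.2 CPM, which rest on 72 to 171 counts. Controls ran from 0.563 CPM through a median of 2.69 CPM to 5.36 CPM, on 7 to 58 counts. The groups did not overlap, and control 2 was the lowest of all. The means were 10 ± 2.87 CPM in mutants and 2.83 ± 1.64 CPM in controls, a log2 fold change of 1.82 (SE 0.423, adjusted p = 0.0227). Leaving out mutant 4 (1.76, adjusted p = 0.0575), mutant 5 (1.66, adjusted p = 0.0534) or control 4 (1.74, adjusted p = 0.0538) ended the call. Female libraries alone gave 1.84 (adjusted p = 0.0885) and the Y-linked covariate 1.70 (adjusted p = 0.338).

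Kcna5 has 2 neighbours of its own family on chromosome 6, Kcna1 (Kv1.1) and Kcna6 (Kv1.6), and all 3 lie between positions 126532551 and 126740674 on the minus strand. The neighbours did not pass. Kcna6 had 24 ± 4.54 CPM in mutants and 24 ± 10.1 CPM in controls (log2 fold change -0.00, SE 0.255). Kcna1 had 3.22 ± 2.41 CPM in mutants and 2.37 ± 1.13 CPM in controls (log2 fold change 0.43, SE 0.689). Kcna3 (Kv1.3), on chromosome 3, had 9.85 ± 1.92 CPM in mutants and 4.36 ± 3.40 CPM in controls, with a log2 fold change of 1.16 that did not pass (adjusted p = 0.232). The cytoplasmic beta subunits of this family had log2 fold changes of -0.60, 0.03 and 0.34 for Kcnab1, Kcnab2 and Kcnab3. Kcnab3 had the highest level per kilobase of the Kcna group over all libraries, 5.26 ± 0.630 CPM in mutants and 4.15 ± 0.997 CPM in controls (adjusted p = 0.444 for the difference).

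The Kcnh family, ether-a-go-go channels named after a fly mutant, had 8 tested genes and 2 of them rose, against 2.68% of all tested genes. Kcnh7 (ENSMUSG00000059742, Erg3), at chr2:62693414-63184287 on the minus strand, stood at 24.4, 20.6, 23.2, 31.9 and 11 CPM in mutants. Its controls ran from 3.14 CPM through 8.56 CPM at the median to 15.5 CPM. Mutant 5 lay below control 2 and control 3, and the other 4 mutants lay above all controls. The means were 22.2 ± 7.58 CPM in mutants and 9.13 ± 4.11 CPM in controls, a log2 fold change of 1.28 (SE 0.342, adjusted p = 0.0465). Exons of Kcnh7 overlap Gca on the opposite strand, which stood at 3.92 ± 1.49 CPM in mutants and 4.80 ± 3.02 CPM in controls. Kcnh1 (ENSMUSG00000058248, Eag1), at chr1:192190774-192510159 on the plus strand, had 19.7, 11.2, 14.3, 17.1 and 10.4 CPM in mutants. Its controls ran from 0.446 CPM through 4.17 CPM at the median to 8.89 CPM. The groups did not overlap, with control 1 lowest on 3 counts. The means were 14.6 ± 3.93 CPM in mutants and 4.32 ± 3.06 CPM in controls, a log2 fold change of 1.74 (SE 0.470, adjusted p = 0.0495).

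Both Kcnh calls lay close to the threshold. Kcnh7 lost it in 8 of the 11 fits that left out 1 library, remaining past it only without mutant 5, control 2 or control 6, with log2 fold changes from 1.09 to 1.5 and adjusted p up to 0.126 over all 11. Kcnh1 lost it in 8 of the 11, remaining past it only without control 1, control 5 or control 6, with log2 fold changes from 1.52 to 2.07 and adjusted p up to 0.131. Counts scaled by library totals alone ended both calls (adjusted p = 0.0605 for Kcnh7 and 0.0572 for Kcnh1). Among female libraries Kcnh7 had a log2 fold change of 1.48 (adjusted p = 0.118) and Kcnh1 of 1.43 (adjusted p = 0.287). Of the other 6 Kcnh genes none passed. Kcnh8, which had the highest level per kilobase of the family in both groups, stood at 13.6 ± 1.09 CPM in mutants and 11.7 ± 2.66 CPM in controls (adjusted p = 0.662). Kcnh6 (Erg2) had a log2 fold change of 1.72 with an SE of 0.727, and Kcnh3 of -2.61 with an SE of 1.10. Both rest on low levels, 3.49 ± 1.79 CPM in mutants and 1.05 ± 0.980 CPM in controls for Kcnh6, and 0.486 ± 0.702 CPM in mutants and 2.94 ± 2.27 CPM in controls for Kcnh3. Kcnh2 (Erg1) had 8.90 ± 3.04 CPM in mutants and 9.18 ± 4.05 CPM in controls.

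**Figure D2:**
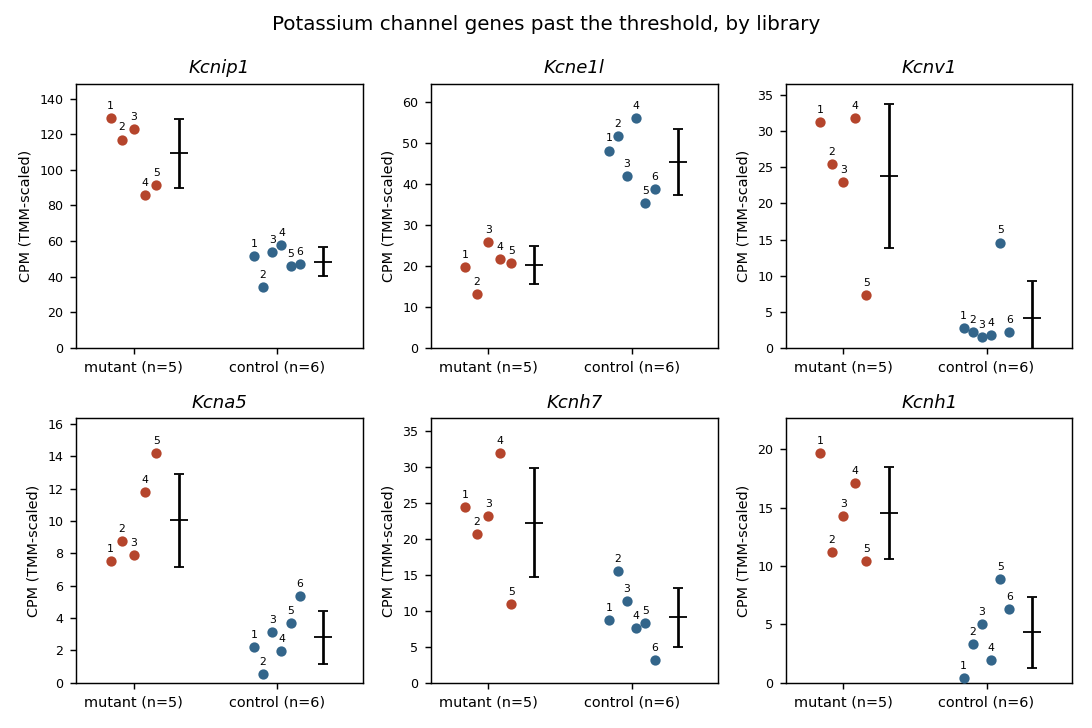
TMM-scaled CPM in each library (points, with replicate numbers) of the 6 potassium channel genes past the threshold, for 5 mutant and 6 control libraries; horizontal marks and bars are the mean and SD of each group, with bars cut at 0. Kcnip1, Kcna5 and Kcnh1 have every mutant above every control, Kcne1l every mutant below, and in Kcnv1 and Kcnh7 mutant 5 lies within the range of the controls.

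Over all 61 tested genes, 3 had every mutant library above every control, where 2.89% of all tested genes did, and 1 had every mutant below, where 2.03% did. These 4 are Kcnip1, Kcna5, Kcnh1 and Kcne1l. Positive log2 fold changes were found in 34 of the 61 and negative ones in 27. A log2 fold change of at least 1 in size was reached by 17 genes, of which 6 passed the threshold. The share of all tested genes that reached this size was not counted. Some of the 17 rest on low levels with wide standard errors, such as Kcnh3 (SE 1.1) and Kcnn4 (SE 0.857). Spread between libraries of the same group was wide. The median coefficient of variation was 36.6% in mutants and 46.5% in controls, and it exceeded 50% in 20 genes in mutants and 26 in controls.

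By role, the pore-forming Kv subunits had 3 of 25 tested genes higher in mutants and none lower, with a median log2 fold change of 0.42. Over all tested genes 2.68% were higher and 1.74% lower. The silent subunits had 1 of 5 higher and a median of -0.44, and the accessory subunits 1 of 11 higher, 1 lower and a median of 0.29. No gene passed among the 6 inward rectifiers, the 6 K2P channels or the 8 Kcnma, Kcnn, Kcnt and Kcnu pore subunits. The medians of these 3 groups were -0.29, -0.09 and 0.66. Some families leaned to a single sign without any gene passing. All 4 Kcnq genes, which carry the M-current in neurons, had negative log2 fold changes, such as -1.88 for Kcnq5 and -0.53 for Kcnq3, though 2 of the 4 were positive among female libraries alone, Kcnq3 at 0.16. Kcnq3 was positive with the Y-linked covariate (0.28) and with limma-voom (0.13) too. All 4 Kcnn genes had positive log2 fold changes, from 0.01 for Kcnn2 to 1.73 for Kcnn4. However, Kcnn2 was negative in 8 of 21 other fits, library totals alone (-0.00) included, and at its lowest (-0.18) with the replicate block. Kcnn4 stood at 2.97 ± 2.41 CPM in mutants and 0.874 ± 0.809 CPM in controls (adjusted p = 0.319). It reached the limit of 1 CPM through the mutant libraries, which favours a positive sign.

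Of the Kcnq genes, Kcnq3 had 5.73 ± 1.42 CPM in mutants and 8.22 ± 7.55 CPM in controls (adjusted p = 0.737). In Kcnq5, all 5 mutants lay below the control mean, at 1.98 ± 1.35 CPM in mutants and 7.20 ± 6.96 CPM in controls (adjusted p = 0.243). The spread of these controls, with coefficients of variation of 91.9% for Kcnq3 and 96.6% for Kcnq5, was wide relative to the difference. Among the Kcnn genes, Kcnn1 had 69.5 ± 25.0 CPM in mutants and 60.8 ± 23.5 CPM in controls (adjusted p = 0.780). Kcnn3 had 25.6 ± 11.9 CPM in mutants and 14.4 ± 4.22 CPM in controls (adjusted p = 0.184). Both genes overlapped between the groups. Kcnma1, the pore of the large-conductance calcium-activated channel, had 9.82 ± 4.11 CPM in mutants and 5.17 ± 3.30 CPM in controls (adjusted p = 0.364), and its accessory gene Kcnmb2 had 4.08 ± 0.977 CPM in mutants and 5.17 ± 1.90 CPM in controls (adjusted p = 0.686). Pore and accessory gene thus differed in sign, with neither past the threshold. The sodium-activated channel gene Kcnt1 stood at 15.1 ± 3.58 CPM in mutants and 10.7 ± 5.61 CPM in controls (adjusted p = 0.526). Kcnu1, a pH-gated relative best known from sperm, had 3.55 ± 1.24 CPM in mutants and 5.58 ± 1.52 CPM in controls (adjusted p = 0.339).

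No gene of the remaining families passed. Kcnj10 (Kir4.1), the main inward rectifier of astrocytes, stood at 23.0 ± 3.61 CPM in mutants and 30.1 ± 12.8 CPM in controls (adjusted p = 0.480). Of the G protein-gated channels, Kcnj3 had 3.04 ± 2.83 CPM in mutants and 3.25 ± 0.727 CPM in controls (adjusted p = 0.968). Mutant libraries of Kcnj3 were spread on both sides of the controls. Among the leak channels, Kcnk10 (TREK-2) had the smallest unadjusted p, at 43.9 ± 9.31 CPM in mutants and 55.9 ± 7.29 CPM in controls (log2 fold change -0.35, adjusted p = 0.273). Kcnk1 (TWIK-1) had 21.4 ± 2.40 CPM in mutants and 15.2 ± 6.18 CPM in controls (adjusted p = 0.356), and Kcnk2 (TREK-1) had 33.4 ± 6.36 CPM in mutants and 36.3 ± 9.48 CPM in controls (adjusted p = 0.821). Every tested leak channel overlapped between the groups. Of the fast Kcnc channels, Kcnc1 (Kv3.1) had 21.4 ± 3.34 CPM in mutants and 29.7 ± 14.5 CPM in controls (adjusted p = 0.440). Kcnrg, a regulator that interferes with Kv subunit assembly, had 3.93 ± 0.549 CPM in mutants and 3.21 ± 0.885 CPM in controls (adjusted p = 0.722).

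**Figure D3:**
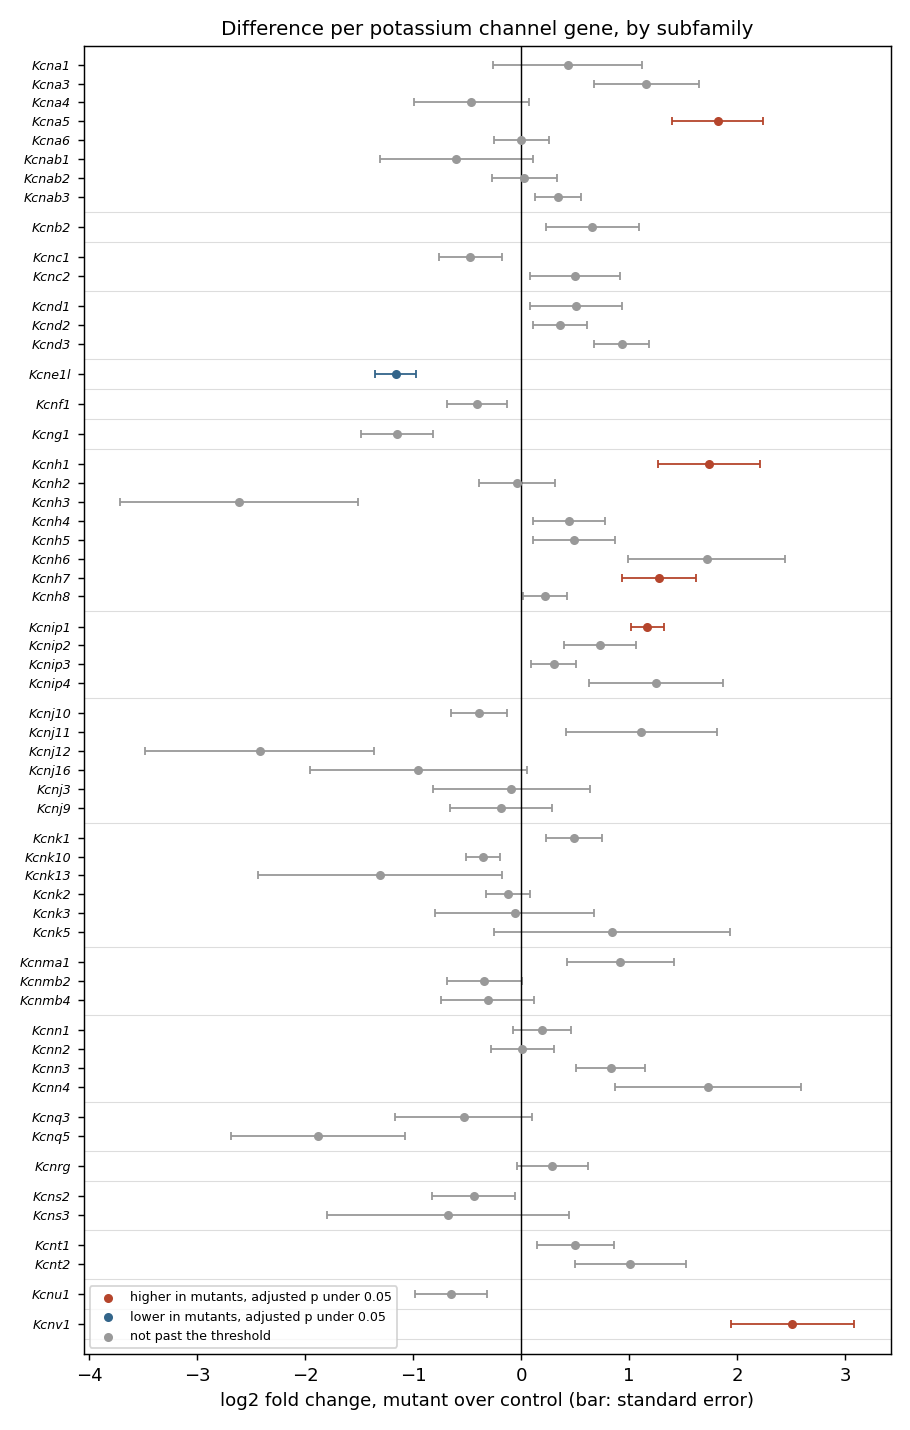
Log2 fold change, mutant over control, of 57 tested potassium channel genes by subfamily, with bars for the standard error. The 5 genes that rose and Kcne1l, which fell, are coloured; the other 51 shown are not past the threshold, and several of these with larger changes, such as Kcnh3 at -2.61, have wide errors.

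Other genes of potassium handling were taken from 4 lists. Their counts stand beside 2.68% of all tested genes that rose and 1.74% that fell. Of 19 tested partners and clustering proteins of Kv channels, 2 rose and none fell, with a median log2 fold change of -0.07. Dpp10, a peptidase-like membrane protein that joins Kcnd channels together with Kcnip proteins, rose to 27.8 ± 13 CPM in mutants, against 7.94 ± 2.67 CPM in controls (log2 fold change 1.81, SE 0.345, adjusted p = 0.00594). It passed in all 11 fits without 1 library, and did not pass among female libraries (1.75, adjusted p = 0.161). Its relative Dpp6 had 85.3 ± 17.4 CPM in mutants and 102 ± 31.4 CPM in controls (adjusted p = 0.607). Ank3 (ankyrin-G), which anchors Kcnq channels at the axon initial segment, rose to 155 ± 23.4 CPM in mutants, against 93.7 ± 28.5 CPM in controls (log2 fold change 0.72, adjusted p = 0.0420). That call was lost in 9 of 11 fits without 1 library, where the adjusted p reached 0.126, and held without control 2 or control 5.

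None of 9 tested partners of calcium-activated and ATP-sensitive channels passed. None of 13 regulators of G protein-gated channels passed. Gng2, highest in that list, stood at 767 ± 138 CPM in mutants and 851 ± 135 CPM in controls (adjusted p = 0.636). Of 16 potassium pump and cotransporter genes 1 rose, with a median log2 fold change of 0.27. Fxyd6, a regulator of the sodium-potassium pump, rose to 1060 ± 78.5 CPM in mutants, against 737 ± 74.5 CPM in controls (log2 fold change 0.53, adjusted p = 0.00281). It passed in all 11 fits without 1 library and not among female libraries (0.55, adjusted p = 0.0543).

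Markers of neuron types moved between the same libraries, in which 2.68% of all tested genes rose and 1.74% fell. In bulk RNA, fewer cells of a type and less RNA per cell cannot be told apart. The summed CPM of 10 markers of interneurons from the medial ganglionic eminence (MGE), such as Lhx6, Nkx2-1 and Sst, was 2780 to 3970 CPM in mutants and 554 to 910 CPM in controls, and 6 of the 10 rose while 1 fell. The sum of 11 markers of striatal projection neurons was 651 to 820 CPM in mutants and 1150 to 2450 CPM in controls, and 6 of the 11 fell while Drd1 rose. Neither pair of ranges overlapped. The part of these cell types in the potassium channel differences was not tested.

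Summed levels of the other marker lists overlapped between groups, and some of their genes were called, where 4.42% of all tested genes were. The olfactory bulb neuroblast list, which names cells of the V-SVZ lineage, summed to 4290 to 5330 CPM in mutants and 3770 to 5380 CPM in controls, and 2 of its 10 genes (Pax6 and Prokr2) rose while Cd24a fell. Astrocyte markers summed to 635 to 1290 CPM in mutants and 654 to 1420 CPM in controls, and Slc4a4 fell among 10. Of these 10 genes, 9 had negative log2 fold changes and 1 a positive one, with a median of -0.34. Oligodendrocyte precursor markers summed to 1150 to 2000 CPM in mutants and 1640 to 3880 CPM in controls, or up to 2590 CPM without control 6. Of these 9 tested genes Gpr17 fell, all 9 had negative log2 fold changes, and the median was -0.79. The part of these cell types in the potassium channel differences was not tested either. No gene of the remaining lists was called, with 2 to 4 genes tested in each. Microglial markers reached 23.5 to 45.7 CPM in mutants and 13.8 to 41.9 CPM in controls (up to 27.7 CPM without control 6), and ependymal markers 10.9 to 20.8 CPM in mutants and 14.4 to 28.8 CPM in controls. Pericyte markers summed to 14.4 to 24.8 CPM in mutants and 17 to 63.3 CPM in controls, or up to 51.4 CPM without control 6. Endothelial markers were near 0, at 1.80 to 9.83 CPM in mutants and 1.36 to 8.89 CPM in controls, with Tek and Abcb1a at 0 in all libraries. Choroid plexus markers summed to 46.3 to 282 CPM in mutants, or up to 96.1 CPM without mutant 5, and to 82.2 to 107 CPM in controls.

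**Figure D4:**
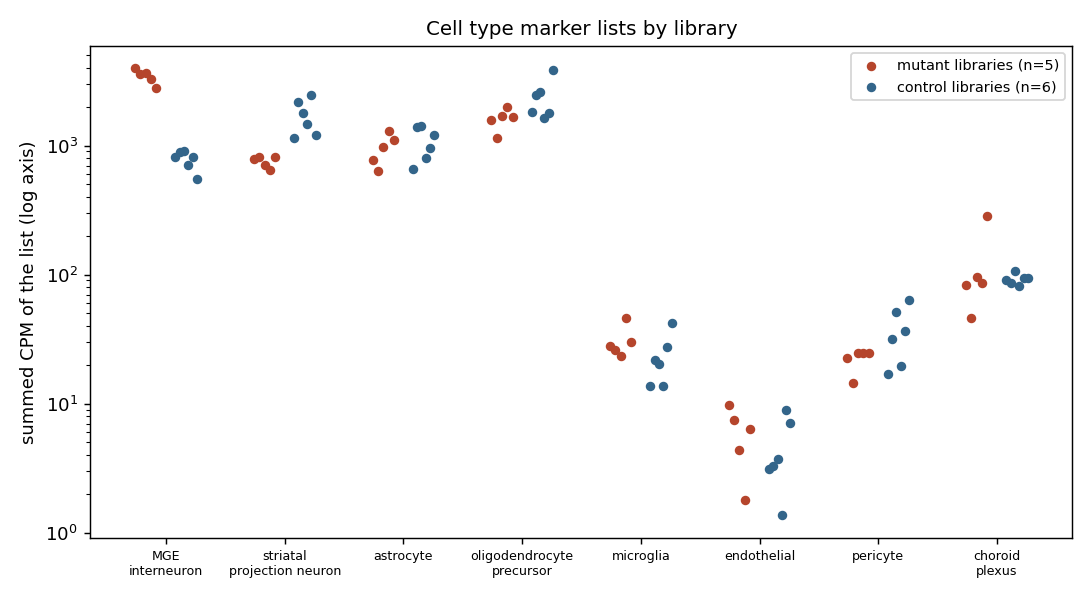
Summed TMM-scaled CPM of 8 cell type marker lists (log axis) in each of 5 mutant and 6 control libraries. The MGE interneuron list lies between 2780 and 3970 in mutants and between 554 and 910 in controls, the striatal projection neuron list between 651 and 820 in mutants and between 1150 and 2450 in controls, and the other lists overlap.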

How the data were processed

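The table deposited by the authors holds raw counts of reads per Ensembl gene and library. The submitters' processing notes name TopHat2 2.0.13, featureCounts 1.4.6, mm10 and GRCm38. Annotation release and strand setting were not given in the sources used here, so reads of exons shared with a gene on the other strand could belong to either. Potassium channel genes and all gene lists were chosen with earlier results of these data known, and the 6 roles after their values were seen.

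Symbols and coordinates came from GENCODE M21 (GRCm38), which matched 37693 of 39179 identifiers, and promoters from RefSeq. Libraries labelled mutant (5) and control (6) were compared in R 4.3.3 with edgeR 4.0.16 (low counts removed by filterByExpr, TMM, robust quasi-likelihood fit, Benjamini-Hochberg adjustment over 14104 genes, threshold 0.05). CPM values are TMM-scaled unless said otherwise, errors are SD, and the SE of a log2 fold change came from the F statistic. Named genes are those past the threshold, the member with the highest level per kilobase of each subfamily, those at the limit, and from each list those past the threshold or else the highest in CPM; some genes this would name are not reported here, and other genes were named after their values were seen. Replicate libraries differed by more than sampling (lowest chi-square/df of a pair 13.7). A count of 0 allows up to 3 counts per library, which covers counting error only. Alternatives were other scalings, filters, DESeq2 1.42.0, limma-voom (limma 3.58.1), leaving out libraries, a replicate block, and 2 treatments of sex.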

Additional observations from a re-analysis of the deposited data

Results flagged for a closer look

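The libraries of each group were compared for 58 potassium channel genes, 8 other genes and 14 list sums. A library far from the others of its group was found in 13 of these 160 groups, where chance gives about 1 in 20. The share of the group's range taken by the gap to the next library is given for each.

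Among mutants, Kcnma1 was highest in mutant 1 at 16.9 CPM (next 9.30 CPM, share 0.718). Kcns2 was highest in mutant 2 at 18.1 CPM (next 9.22 CPM, share 0.755), and Kcnj16 in mutant 5 at 3.16 CPM (next 0.691 CPM, share 0.781). Among controls, Kcnv1 was highest in control 5 at 14.6 CPM (next 2.83 CPM, share 0.897), and so was Kcna4 at 28.9 CPM (next 11.3 CPM, share 0.655). Kcnc4, which was not tested, was highest in control 4 at 2.72 CPM (next 0.563 CPM, share 0.793). Kcnip4 was lowest in control 1 at 0.297 CPM (next 1.39 CPM, share 0.795).

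Of the other genes, Ank3 was highest in mutant 3 at 195 CPM (next 152 CPM, share 0.712), and Gca in control 3 at 10.6 CPM (next 5.22 CPM, share 0.629). Of the list sums, partners of calcium-activated and ATP-sensitive channels were highest in mutant 2 at 2530 CPM (next 2260 CPM, share 0.748), and microglia markers in mutant 4 at 45.7 CPM (next 29.9 CPM, share 0.713). Pericyte markers were lowest in mutant 2 at 14.4 CPM (next 22.6 CPM, share 0.784), and choroid plexus markers highest in mutant 5 at 282 CPM (next 96.1 CPM, share 0.789).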

How the results depend on the processing

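Of the potassium channel genes, 5 rose and 1 fell in the fit reported. Leaving out 1 library at a time gave 1 to 5 that rose and 1 to 2 that fell. The genes changed too: without mutant 2, Kcnd3 and Kcnn3 rose, while Kcnh1 and Kcnh7 did not pass. Kcng1 fell beside Kcne1l without control 2. Library totals alone gave 3 that rose, female libraries 1 (and 0 that fell), the Y-linked level as a covariate 1, and a threshold of 0.01 gave 1. With a threshold of 0.1, and with DESeq2, 6 rose, Kcnd3 included, and 2 fell, Kcng1 included. The replicate block, with control 6 left out, gave 2 that rose, Kcna5 and Kcnip1. Same-numbered libraries did not deviate together (correlations of -0.137 to 0.021), which cannot exclude that they are paired. The highest correlation of a mutant with a control library was 0.157, for mutant 5 and control 6. Without control 6 and mutant 5 the counts were 6 and 1. RLE factors, both other filters and limma-voom stayed within 1.5 times of the reported counts. Over all genes, 378 rose and 245 fell, against 150 and 68 among female libraries, 119 and 66 with the Y-linked covariate, 204 and 82 at 0.01, and 662 and 539 with DESeq2. Signs turned in these named genes, which passed in no fit: Kcnc1 (-0.47) at 0.18 among female libraries and 0.07 with the covariate, Kcnrg (0.29) at -0.05 and -0.01, and Kcnj10 (-0.39) at 0.04 with the covariate. The cause was not tested. Only 2 female controls remain in that fit. Depth limits the low genes: 3 counts equal 0.229 CPM in the largest library and 0.439 CPM in the smallest.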

Other observations

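Among potassium channel genes under 1 CPM, 2 G protein-gated inward rectifiers had most of their counts in mutant libraries. They were chosen after their values were seen and were not tested. Genes of other families leaned the same way, such as Kcne2 and Kcnmb1 with 0 counts in all 6 controls. Kcnq1 leaned the other way, with 21 counts in control 6. Kcnj5 had 11, 0, 48, 0 and 0 counts in mutants 1 to 5 and 0 in all 6 controls. Kcnj6 had 1, 34, 4, 28 and 28 counts in mutants, against 0, 11, 0, 0, 2 and 0 counts in controls 1 to 6. Mutants 1 and 3, the libraries with Kcnj5 counts, had the lowest Kcnj6 counts of the mutants.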
